A study of Homo sapiens with 4 samples.

Results

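A set of 9 genes of the interleukin-1 (IL-1) and IL-18 system were followed through the conversion of BLaER1 cells, and all 9 were found by symbol among the 58302 gene rows of the deposited table. They are the ligands IL1A, IL1B and IL18, the antagonists IL1RN and IL18BP, the decoy receptor IL1R2, and the signalling receptor chains IL1R1, IL1RAP and IL18R1. BLaER1 is a human B cell leukaemia line into which the myeloid transcription factor C/EBPα, made dependent on oestradiol by fusion to part of the oestrogen receptor, was introduced, and all libraries carry this fusion. Differentiated cells had received IL-3 (10 ng/ml), M-CSF and 100 nM oestradiol for 5 to 6 days, a treatment that turns the line into cells with macrophage features, and undifferentiated cells are the same line before it. Total RNA from 2 libraries of each stage was sequenced. No label states that libraries of the same stage are separate cultures, and p-values here cover the variation among the 4 libraries, possibly technical only.

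IL-1α and IL-1β act on the receptor chain encoded by IL1R1, which then recruits the accessory chain IL1RAP and signals through MYD88 to NF-κB. IL1RN encodes a secreted antagonist that occupies the same receptor without signalling, and IL1R2 encodes a decoy that binds IL-1 but lacks a signalling domain. IL-1β and IL-18 are made as inactive precursors that caspase-1 cleaves, and IL-18 is held in check by the soluble binding protein encoded by IL18BP. Monocytes and macrophages are the main source of IL-1β, and they also release the antagonist.

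IL1RN, IL1R2 and IL1B were higher in differentiated than in undifferentiated cells. IL1A, IL18, IL18BP, IL1R1 and IL18R1 were scarce at both stages, and IL1RAP lay near 1 to 2 TPM with overlapping stages. Values are TPM, an abundance per transcript length that has the same sum in each library, so levels of different genes in a library can be set side by side. In differentiated cells 4 members (IL1RN, IL1B, IL1R2 and IL1RAP) reached 1 TPM in both libraries, whereas in undifferentiated cells IL1B alone did. The other 5 members stayed below 1 TPM in all 4 libraries. By mean TPM the order in differentiated cells was IL1RN, IL1B, IL1R2, IL1RAP, IL18BP, IL1A, IL1R1, IL18R1 and IL18. Of these neighbours IL1RN and IL1B did not overlap, IL1B and IL1R2 were nearly level in replicate 1, IL1R2 stood clear of IL1RAP, and IL1RAP stood clear of the rest. In undifferentiated cells IL1B came first and IL1RAP second, and these did not overlap. The summed TPM of the 9 genes was 26.28 and 32.34 in the differentiated libraries, against 3.66 and 2.46 in the undifferentiated libraries.

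**Figure D1:**
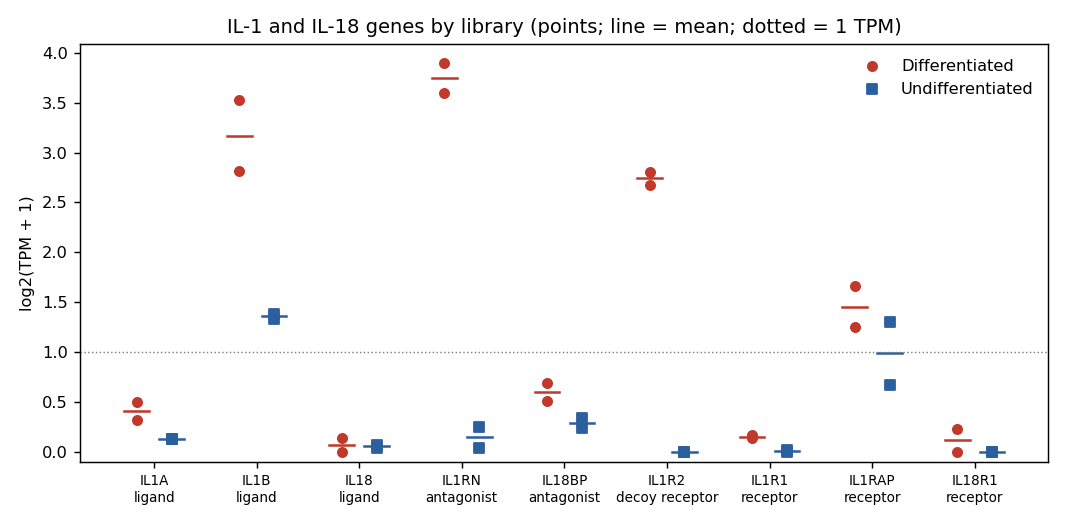
Level of each gene as log2(TPM + 1) in the 2 differentiated libraries (red circles) and the 2 undifferentiated libraries (blue squares), with the stage mean as a line and 1 TPM as a dotted line. IL1RN, IL1R2, IL1B and IL1RAP stand above the dotted line in both differentiated libraries, and IL1B also in both undifferentiated libraries. IL1RAP overlaps between the stages, and the other 5 genes lie below the line throughout.

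The start regions of the 3 genes that were higher are shown because the conversion is driven by a C/EBP fusion. Windows of 300 bases, from 250 bases before to 50 bases after each RefSeq transcription start (build GRCh38.p14), were taken from RefSeq, which gave 6 windows for the 3 genes. Of these 5 are printed, and the one left out is an IL1RN window that overlaps the downstream one. Capitals mark matches, on either strand, to TTNNGNAA, the core of the sequence that C/EBP proteins bind, or to GAGGAA, a core bound by PU.1 and other ETS factors. For IL1RN the window at the upstream start belongs to the intracellular forms of the antagonist, and the window downstream of it to the secreted form. The deposited values are per gene and do not say which start was used.
IL1B, chr2:112836730-112837029, minus strand: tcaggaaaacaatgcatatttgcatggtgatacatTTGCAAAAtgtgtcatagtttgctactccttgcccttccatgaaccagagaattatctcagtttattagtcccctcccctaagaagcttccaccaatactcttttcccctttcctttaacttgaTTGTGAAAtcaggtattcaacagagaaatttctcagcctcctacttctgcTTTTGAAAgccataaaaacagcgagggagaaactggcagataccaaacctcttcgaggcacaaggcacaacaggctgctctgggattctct
IL1RN downstream start, chr2:113127348-113127647, plus strand: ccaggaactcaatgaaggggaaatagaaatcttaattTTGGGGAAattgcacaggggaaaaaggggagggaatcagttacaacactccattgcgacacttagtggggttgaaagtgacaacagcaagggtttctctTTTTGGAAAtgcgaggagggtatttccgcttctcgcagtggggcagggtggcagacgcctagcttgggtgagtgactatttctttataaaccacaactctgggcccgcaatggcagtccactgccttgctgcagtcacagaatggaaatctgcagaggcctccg
IL1RN upstream start, chr2:113117721-113118020, plus strand: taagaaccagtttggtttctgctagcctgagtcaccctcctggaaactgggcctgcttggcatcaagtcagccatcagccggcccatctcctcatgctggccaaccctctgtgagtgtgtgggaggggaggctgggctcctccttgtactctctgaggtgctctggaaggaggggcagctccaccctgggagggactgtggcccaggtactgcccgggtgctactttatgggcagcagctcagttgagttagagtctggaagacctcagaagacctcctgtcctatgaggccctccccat
IL1R2 upstream start, chr2:101991710-101992009, plus strand: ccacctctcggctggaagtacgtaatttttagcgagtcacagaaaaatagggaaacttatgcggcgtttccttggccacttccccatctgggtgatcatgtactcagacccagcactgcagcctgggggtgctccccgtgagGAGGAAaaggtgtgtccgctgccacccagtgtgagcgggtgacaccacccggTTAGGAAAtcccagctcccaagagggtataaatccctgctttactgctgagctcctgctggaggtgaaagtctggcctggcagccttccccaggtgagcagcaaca
IL1R2 downstream start, chr2:101998711-101999010, plus strand: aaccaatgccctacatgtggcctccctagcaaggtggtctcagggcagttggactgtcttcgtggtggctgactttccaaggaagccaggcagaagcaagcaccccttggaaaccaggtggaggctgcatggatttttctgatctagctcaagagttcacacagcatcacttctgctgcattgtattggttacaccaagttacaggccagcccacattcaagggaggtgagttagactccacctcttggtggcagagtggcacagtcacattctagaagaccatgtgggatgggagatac

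The IL1B window held 3 matches to TTNNGNAA, beginning 215, 91 and 41 bases before the start. The downstream IL1RN window held 3, of which the pair beginning 114 and 113 bases before the start overlap. The upstream IL1R2 window held 1 match to TTNNGNAA, beginning 56 bases before the start, and 1 match to GAGGAA, beginning 108 bases before it. The upstream IL1RN window and the downstream IL1R2 window held neither. Over all windows of the 3 genes, 4 of 6 held TTNNGNAA and 1 of 6 held GAGGAA. Among 35116 RefSeq windows of the same length, 36.8% held TTNNGNAA and 27.9% held GAGGAA. Several windows of a gene can overlap, and a match describes letters and is no evidence of binding.

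IL1B (ENSG00000125538) was the most abundant member before differentiation and, by its mean, the second most abundant after it. Its level was 6.04 and 10.49 TPM in the differentiated libraries and 1.61 and 1.52 TPM in the undifferentiated libraries. The stages did not overlap, and the spread was wider among differentiated libraries (8.27 ± 3.15 TPM, against 1.57 ± 0.0636 TPM in undifferentiated cells; SD, n = 2 each). The fold between the stage means was 5.28. On the log2(TPM + 1) scale the difference was 1.81 ± 0.40 (SE; 95% interval 0.94 to 2.68), with an adjusted p of 0.00279 in the limma fit over 10180 genes (Benjamini-Hochberg). Without either differentiated library the IL1B difference was no longer called (adjusted p = 0.106 without replicate 1 and 0.212 without replicate 2), nor was it when low genes were kept in the test (adjusted p = 0.0736). Against 19817 protein-coding genes, IL1B lay above 86.7% and 92.3% of them in differentiated and above 61.3% and 68.3% of them in undifferentiated libraries.

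The other ligands were scarce at both stages. IL1A (ENSG00000115008), whose product is active without cleavage, was listed at 0.25 and 0.41 TPM in differentiated libraries, and at 0.09 TPM in both undifferentiated libraries. The stages did not overlap for IL1A, but all its values were below 1 TPM and it was not tested. IL18 (ENSG00000150782) was listed at 0 and 0.10 TPM in differentiated libraries, and at 0.03 and 0.05 TPM in undifferentiated libraries, and its stages overlapped. TPM keeps no read depth, so no detection limit can be set for these low values, and a listed 0 can also be a failed estimate.

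The antagonist IL1RN (ENSG00000136689) was the most abundant member after differentiation. It was listed at 11.13 and 13.86 TPM in differentiated libraries, and at 0.19 and 0.03 TPM in undifferentiated libraries. Both differentiated libraries lay far above both undifferentiated ones, with a log2 difference of 3.60 ± 0.37 (SE; 95% interval 2.79 to 4.41; limma adjusted p = 1.16e-05). IL1RN lay above 93.5% and 94.5% of protein-coding genes in differentiated libraries, against 44.1% and 38.0% in undifferentiated libraries. Its call was kept in every alternative tried, with adjusted p from 1.23e-11 to 0.0163 and a log2 difference from 3.45 to 6.05. IL1RN entered the test through the differentiated libraries alone. Of all tested genes below 1 TPM in both undifferentiated libraries, 91.2% were called higher, so the call adds little to the values.

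The decoy receptor gene IL1R2 (ENSG00000115590) was listed at 5.99 and 5.39 TPM in differentiated libraries and had 0 TPM in both undifferentiated ones. No fold is given against a stage listed at 0. The limma fit called IL1R2 higher (adjusted p = 1.7e-05), and the call was kept in every alternative tried, with adjusted p from 5.23e-11 to 0.0201. Like IL1RN, it entered the test through the differentiated libraries alone, where 91.2% of such genes were called higher. IL18BP (ENSG00000137496), the IL-18 antagonist, was low at 0.42 and 0.61 TPM in differentiated and 0.26 and 0.18 TPM in undifferentiated libraries. The stages did not overlap, but IL18BP was below the limit of 1 TPM for testing. NUMA1, which overlaps IL18BP on the opposite strand in GENCODE release 29, had 20.32 and 21.98 TPM in differentiated and 21.63 and 14.63 TPM in undifferentiated libraries. Libraries were stranded per the labels' protocols, but whether counting used the strand is not given, so reads of NUMA1 in the IL18BP value could not be set apart. IL18 likewise overlaps AP002884.3, a gene on the opposite strand, listed at 0 and 1.95 TPM in differentiated and 0.75 and 1.51 TPM in undifferentiated libraries.

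Of the chains that transmit the signal, IL1RAP alone reached 1 TPM. IL1RAP (ENSG00000196083), the accessory chain shared by receptors of the family, was listed at 2.16 and 1.38 TPM in differentiated libraries, and at 1.47 and 0.59 TPM in undifferentiated libraries. The stages overlapped, and the log2 difference of 0.47 ± 0.31 (SE) had a 95% interval of -0.21 to 1.14 and was not called (limma adjusted p = 0.251). After median-of-ratios scaling IL1RAP was called higher (0.62, adjusted p = 0.0498), and so it was with TPM rescaled on protein-coding genes alone (1.29, adjusted p = 0.0296). By rank, IL1RAP lay above 69.8% and 61.8% of protein-coding genes in differentiated and above 60.1% and 55.6% of them in undifferentiated libraries. IL1R1 (ENSG00000115594), the chain that binds the ligand, was listed at 0.12 and 0.10 TPM in differentiated libraries, and at 0.01 and 0 TPM in undifferentiated libraries. The IL1R1 stages did not overlap, with the differentiated libraries higher, but all values were below 1 TPM and it was not tested. IL18R1 (ENSG00000115604), the ligand-binding chain for IL-18, was listed at 0.17 and 0 TPM in differentiated libraries and had 0 TPM in both undifferentiated ones. In differentiated cells the decoy IL1R2 was therefore listed at 49.9 and 53.9 times the TPM of IL1R1. These ratios rest on IL1R1 at 0.12 and 0.10 TPM, so their size is imprecise. In bulk RNA, fewer expressing cells and less RNA per cell cannot be told apart.

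**Figure D2:**
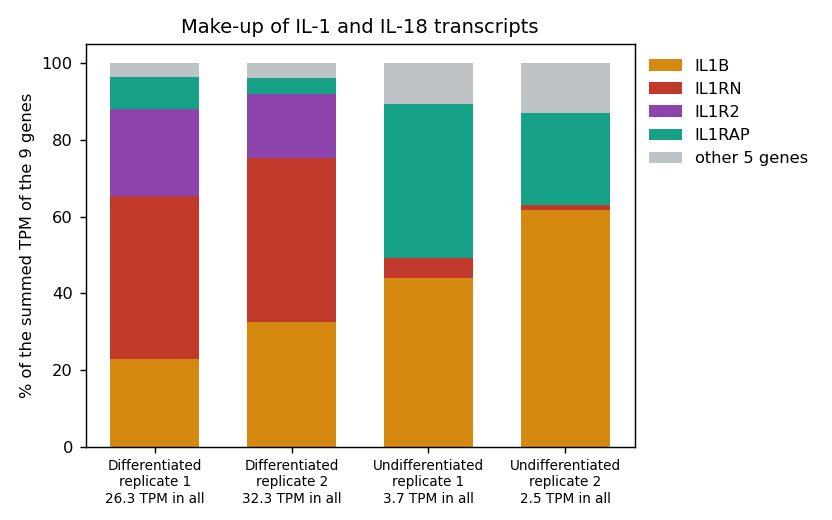
Make-up of the summed TPM of the 9 genes in each library, in percent, with differentiated libraries on the left. IL1RN takes the tallest part in differentiated cells, followed by IL1B and then IL1R2, whereas IL1B and IL1RAP take most of it in undifferentiated cells.

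The make-up of this set differed between the stages. IL1RN took 42.4% and 42.9% of the summed TPM of the 9 genes in differentiated and 5.19% and 1.22% in undifferentiated libraries. IL1R2 took 22.8% and 16.7% in differentiated libraries and 0% in both undifferentiated libraries. IL1B took 23.0% and 32.4% in differentiated and 44.0% and 61.8% in undifferentiated libraries. For IL1RAP the shares were 8.22% and 4.27% in differentiated and 40.2% and 24.0% in undifferentiated libraries.

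The ratio of antagonist to ligand in TPM is unaffected by any factor that multiplies all genes of a library. IL1RN stood at 1.84 and 1.32 times the TPM of IL1B in differentiated libraries, and at 0.118 and 0.0197 times in undifferentiated libraries. The ratio was above 1 in both differentiated and below 1 in both undifferentiated libraries. The log2 ratio differed by 5.02 between the stages, and by 1.77 on the quantile-normalized scale, which includes the pseudocount of 1. The undifferentiated ratios rest on IL1RN at 0.19 and 0.03 TPM. An exact permutation test of 2 against 2 libraries gave a two-sided p of 0.333, the smallest it can give. For IL18BP over IL18 no ratio exists in differentiated replicate 1, where IL18 is listed at 0. It was 6.1 in differentiated replicate 2, and 8.67 and 3.6 in the undifferentiated libraries, all formed from values below 1 TPM.

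Of 10180 genes tested over the table, 41.4% were called, 18.6% higher and 22.8% lower in differentiated cells. Testing required 1 TPM or more in any 2 of the 4 libraries. Of the 4 members tested, 3 were called higher, 0 were called lower and IL1RAP was not called. Both differentiated libraries lay above both undifferentiated libraries for these 3 members, and for 31.0% of all tested genes. IL1RN and IL1R2 were below 1 TPM in both undifferentiated libraries and entered the test through the differentiated libraries alone. Among tested genes of that kind 91.2% were called higher, and their calls are read against that share. IL1B was at or above 1 TPM in both undifferentiated libraries, and of 7971 such genes 7.63% were called higher.

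**Figure D3:**
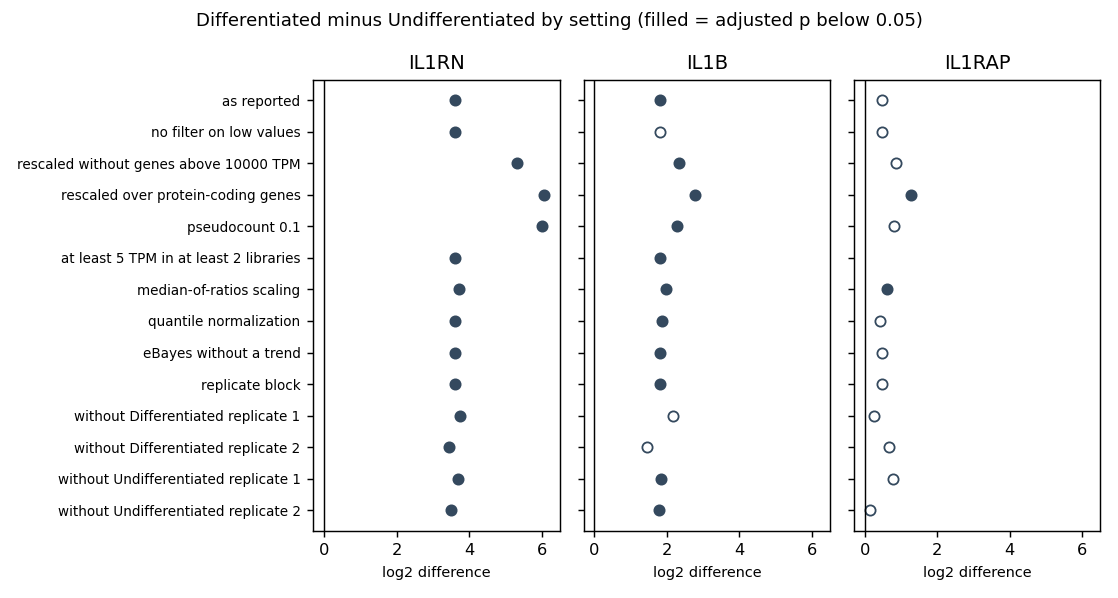
Log2 difference on the log2(TPM + 1) scale, differentiated minus undifferentiated, for IL1RN, IL1B and IL1RAP as reported and under each alternative, with filled points for an adjusted p below 0.05. All points lie right of 0, IL1RN is filled throughout, IL1B is open without a filter and without either differentiated library, and IL1RAP is filled under median-of-ratios scaling and over protein-coding genes. IL1R2, listed at 0 before differentiation, is not plotted, and IL1RAP has no point at the limit of 5 TPM.

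Scaling bears on the size of the difference of every tested member, and for the lower members also on whether they were called. Over protein-coding genes the log2 difference was 6.05 for IL1RN, 5.50 for IL1R2 and 2.77 for IL1B. As reported it was 3.60, 2.74 and 1.81, and these genes were called on both scales. Protein-coding genes made up 12.2% and 13.5% of the summed TPM in differentiated and 23.0% and 15.6% in undifferentiated libraries, with RNA of other classes taking the rest. Rescaled so that protein-coding genes alone hold the fixed sum of TPM, IL1RAP stood at 17.7 and 10.2 in differentiated and 6.39 and 3.78 in undifferentiated libraries, so the stages did not overlap on this scale. IL1A stood at 2.05 and 3.04 in differentiated and 0.391 and 0.577 in undifferentiated libraries, and IL18BP at 3.45 and 4.52 in differentiated and 1.13 and 1.15 in undifferentiated libraries. The median difference over the 11945 genes tested on this scale, all protein-coding, was 0.37. It was -0.14 over the 10180 genes of all types tested as reported. The tested genes differ, so these medians do not show the effect of scaling alone. The pseudocount stayed at 1 on the larger rescaled values, so its smaller weight also enters the differences. IL1A (limma adjusted p = 0.0132) and IL18BP (limma adjusted p = 0.0148) then passed the limit for testing and were called higher. On this scale 4102 of 11945 tested genes were called higher. IL1A was below 1 in both undifferentiated libraries and entered the test through the differentiated libraries alone. The share called among such genes was not computed on this scale.

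Most of these genes sit in a pair of groups on chromosome 2. In RefSeq, 9 protein-coding genes run from IL1A through IL1B and the IL-36 genes to IL1RN, and of these IL1B and IL1RN alone reached 1 TPM in any library. The genes between them, IL37, IL36G, IL36A, IL36B, IL36RN and IL1F10, were listed at 0.07 TPM or less in every library. The other group holds 6 receptor genes in the order IL1R2, IL1R1, IL1RL2, IL1RL1, IL18R1 and IL18RAP. IL1R2 alone reached 1 TPM there, and its neighbour IL1R1 stayed at or below 0.12 TPM. IL1RL2, IL1RL1 and IL18RAP, the last the second chain of the IL-18 receptor, were listed at 0 in all 4 libraries.

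**Figure D4:**
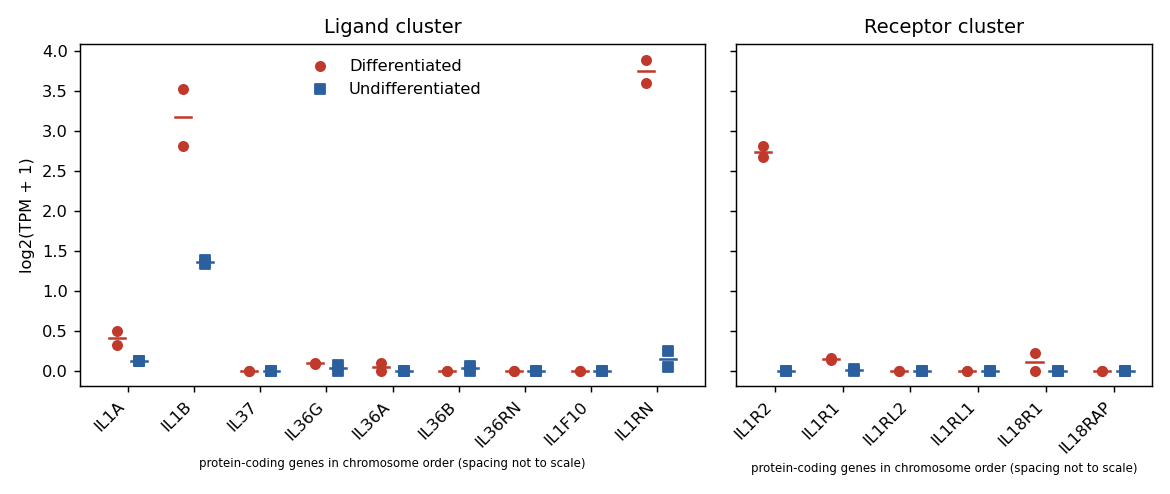
Level as log2(TPM + 1) of the protein-coding genes in their order along chromosome 2, for the ligand group (left) and the receptor group (right), with points for libraries and lines for stage means. IL1B, IL1RN and IL1R2 stand out from neighbours that lie near 0.

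Of 13 other family members, SIGIRR alone was tested. SIGIRR, a receptor that dampens IL-1 signalling, had 1.54 and 2.02 TPM in differentiated and 0.91 and 1.29 TPM in undifferentiated libraries. The stages did not overlap, but the log2 difference of 0.41 (95% interval -0.22 to 1.03) was not called (limma adjusted p = 0.289). It was called over protein-coding genes (adjusted p = 0.0448).

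Genes for the maturation and release of IL-1β and IL-18 were mostly higher among those tested. Of 20 in the list 16 were tested, 11 of them higher, 0 lower and 5 not called, with a median log2 difference of 1.90 against -0.14 over all tested genes, of which 18.6% were called higher. Of these 11, 6 were below 1 TPM in both undifferentiated libraries, where 91.2% of all tested genes were called higher. Of the 7 at or above 1 TPM in both undifferentiated libraries, 2 were called higher, against 7.63% of all such genes. The rest of the genes called higher, CASP1 among them, were below 1 TPM in 1 undifferentiated library only. Without differentiated replicate 1 or replicate 2 the list held 6 genes called higher, and without a filter 7. PSTPIP1, an adaptor that binds the inflammasome protein pyrin, had 11.2 and 16.61 TPM in differentiated and 0.24 and 0.44 TPM in undifferentiated libraries (log2 difference 3.46, limma adjusted p = 2.11e-05). CASP4, the caspase that senses lipopolysaccharide inside cells, had 11.6 and 12.82 TPM in differentiated and 0.45 and 0.40 TPM in undifferentiated libraries (log2 difference 3.21, limma adjusted p = 2.6e-05). Both genes were thus well above their undifferentiated levels in both differentiated libraries. Like CARD16, described next, they were below 1 TPM in both undifferentiated libraries, so their calls are read against the share of 91.2%.

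CARD16, which encodes a protein resembling the recruitment domain of caspase-1, had 8.47 and 10.32 TPM in differentiated and 0.42 and 0.39 TPM in undifferentiated libraries (log2 difference 2.88, limma adjusted p = 5.03e-05). CASP1, named for its role as the enzyme that cleaves both precursors, had 6.6 and 9.92 TPM in differentiated and 2.11 and 0.48 TPM in undifferentiated libraries (log2 difference 2.09, limma adjusted p = 0.00204). CARD16 and CASP1 are close in sequence, so the split of reads between them is uncertain. The CASP1 call was lost without either differentiated library (adjusted p = 0.113 and 0.167) and without a filter (adjusted p = 0.0998). GSDMD, whose product forms the pore through which IL-1β leaves the cell and which is also named for its role, had 2.50 and 2.47 TPM in differentiated and 5.56 and 5.89 TPM in undifferentiated libraries. Its stages did not overlap, yet the log2 difference of -0.95 was not called (limma adjusted p = 0.0606). GSDMD was called lower under several alternatives, among them quantile normalization (adjusted p = 0.0303) and a limit of 5 TPM (adjusted p = 0.0182). CAPN1, a calpain protease, had the highest mean TPM over the 4 libraries among the genes not called, at 9.31 and 10.5 TPM in differentiated and 12.43 and 13.72 TPM in undifferentiated libraries (limma adjusted p = 0.459).

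Signalling genes downstream of the receptors were mixed. Of 21 tested (23 in the list), 8 were higher, 1 was lower and 12 were not called, with a median log2 difference of 0.26, against 18.6% higher and 22.8% lower over all tested genes. Among the 8 higher, 2 were below 1 TPM in both undifferentiated libraries, where 91.2% of all tested genes were called higher. Of the 17 at or above 1 TPM in both undifferentiated libraries, 5 were called higher, against 7.63% of all such genes. PELI1, a ubiquitin ligase that acts on IRAK kinases, had 12.85 and 16.53 TPM in differentiated and 1.33 and 1.37 TPM in undifferentiated libraries (log2 difference 2.73, limma adjusted p = 9.8e-05). The kinase gene MAP3K3 had 5.45 and 6.61 TPM in differentiated and 1.15 and 1.16 TPM in undifferentiated libraries (limma adjusted p = 0.00243). IKBKB, a kinase that releases NF-κB from its inhibitor, had 13.89 and 15.41 TPM in differentiated and 4.99 and 2.97 TPM in undifferentiated libraries (limma adjusted p = 0.00385).

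UBE2N, which builds the ubiquitin chains made by TRAF6, went the other way. It had 7.10 and 8.61 TPM in differentiated and 37.86 and 22.45 TPM in undifferentiated libraries (log2 difference -1.77, limma adjusted p = 0.00285). Its partner UBE2V1 had 24.52 and 21.28 TPM in differentiated and 37.52 and 32.97 TPM in undifferentiated libraries and was not called (limma adjusted p = 0.203). UBE2N has processed pseudogenes and UBE2V1 a readthrough gene, so the share of reads given to each is uncertain. Each of PELI1, MAP3K3, IKBKB and UBE2N lost its call without either differentiated library (adjusted p from 0.0542 to 0.218), and IKBKB (adjusted p = 0.0725) and UBE2N (adjusted p = 0.0796) also lost it without a filter. Without differentiated replicate 1 or replicate 2 the list held 1 gene called higher, without a filter 3, and at a limit of 5 TPM 5.

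Genes that IL-1 is known to induce were higher in 9 of 10 tested, with 17 in the list, a median log2 difference of 2.31 and 0 lower, against 18.6% higher over all tested genes. The 7 genes of the list that were not tested did not reach 1 TPM in 2 libraries. Of the 9 called higher, 7 were below 1 TPM in both undifferentiated libraries, where 91.2% of all tested genes were called higher. CCL2, CXCL8 and NFKBIZ, described next, are among the latter, so their calls are read against that share. Of the 3 at or above 1 TPM in both undifferentiated libraries, 2 were called higher, against 7.63% of all such genes. The chemokine gene CCL2 had 27.46 and 34.78 TPM in differentiated and 0 and 0.32 TPM in undifferentiated libraries (limma adjusted p = 1.92e-06). CXCL8, which attracts neutrophils, had 27.26 and 38.95 TPM in differentiated and 0.64 and 0.78 TPM in undifferentiated libraries (log2 difference 4.30, limma adjusted p = 3.96e-06). NFKBIZ, an NF-κB cofactor, had 8.71 and 14.46 TPM in differentiated and 0.22 and 0.10 TPM in undifferentiated libraries (log2 difference 3.40, limma adjusted p = 2.25e-05). These genes also respond to other stimuli, so their level does not measure IL-1 action. TNFAIP3, a brake on NF-κB, was not called, with 4.31 and 7.31 TPM in differentiated and 9.64 and 8.95 TPM in undifferentiated libraries (limma adjusted p = 0.223).

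In the list for the response to IL-18 and IL-12, 1 of 7 genes was tested and it was lower, against 22.8% lower over all tested genes. It was at or above 1 TPM in both undifferentiated libraries, and of 7971 such genes 2326 were called lower. A single gene does not describe the list. IL12RB2, a chain of the IL-12 receptor, had 0.46 and 1.44 TPM in differentiated and 12.99 and 7.34 TPM in undifferentiated libraries (log2 difference -2.52, limma adjusted p = 0.000423). The call was lost without either differentiated library (adjusted p = 0.129 and 0.0665) and without a filter (adjusted p = 0.0679). IFNG, the main product of IL-18 action on lymphocytes, was listed at 0 in all 4 libraries.

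**Figure D5:**
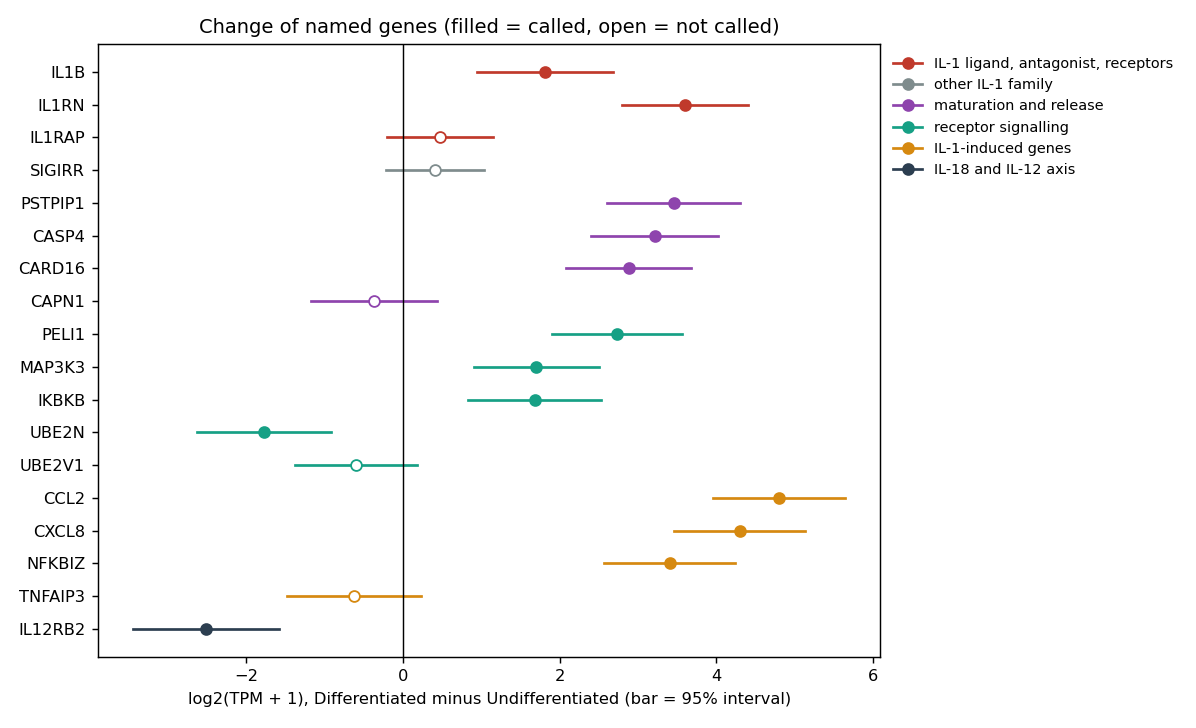
Log2 difference on the log2(TPM + 1) scale, differentiated minus undifferentiated, with its 95% interval from limma, for the tested members other than IL1R2 and for the genes named from each list. Filled points were called at an adjusted p below 0.05, and colours give the list. IL1RN lies at 3.60 and IL1B at 1.81, whereas the interval of IL1RAP spans 0.

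By distance over the 4 libraries, the genes whose levels were most like those of IL1RN among 9295 tested protein-coding genes were CD36 (0.15), C1orf162 (0.16) and LMNA (0.167), in units of log2(TPM + 1). CD36, a scavenger receptor, had 11.45 and 12.54 TPM in differentiated and 0.16 and 0 TPM in undifferentiated libraries. For IL1B the nearest were GK (0.215), NECAP2 (0.264) and UBXN6 (0.281). The glycerol kinase gene GK had 6.25 and 9.93 TPM in differentiated and 1.72 and 1.21 TPM in undifferentiated libraries.

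Markers set the background of cell identity. All 7 monocyte and macrophage markers were at or above 1 TPM in both differentiated libraries, with a summed level of 631 and 702 TPM, against 7.94 and 6.22 TPM in undifferentiated libraries, where 1 of the 7 reached 1 TPM in both. The 8 B lineage markers summed to 9.37 and 11.0 TPM in differentiated and 426 and 250 TPM in undifferentiated libraries, and 4 of them were at or above 1 TPM in both differentiated libraries. T and NK cell markers summed to at most 1.77 TPM in any library, with CD3D and CD3E at 0 in all of them. NKG7 had 0.76 and 0.65 TPM in differentiated and 1.02 and 0.47 TPM in undifferentiated libraries. CD2 had 0.70 and 0.13 TPM, and CD3G 0.13 and 0.16 TPM, in differentiated libraries, and both were at 0 in undifferentiated libraries. Neutrophils also express IL1R2 and IL1RN. Granulocyte markers summed to 0.82 and 0.28 TPM in differentiated and 0.26 and 0.08 TPM in undifferentiated libraries. Among them ELANE, AZU1 and PRTN3 were at 0 in all 4 libraries. MPO had 0.47 and 0 TPM, and CSF3R 0.32 and 0.25 TPM, in differentiated libraries. A granulocyte source of these transcripts was not tested. Mast cell and basophil markers summed to at most 0.40 TPM and epithelial and fibroblast markers to at most 0.34 TPM. Of the erythroid and megakaryocyte markers PPBP alone exceeded 1 TPM in both differentiated libraries, at 22.55 and 23.69 TPM, against 0.09 and 0 TPM in undifferentiated libraries. The list summed to 23.0 and 24.1 TPM in differentiated and 0.09 and 1.11 TPM in undifferentiated libraries, and its part in the results was not tested.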

How the data were processed

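RNA-seq of total RNA from BLaER1 cells gave 1 table of TPM with a column for each of 4 libraries. The authors deposited TPM, scaled by gene length to the same sum in each library. The submitters' processing notes name Trimmomatic, STAR and RSEM, with no version, and a genome build and an annotation release were not given in the sources used here. TPM keeps no sequencing depth, so no counting error or detection limit was computed, and abundant RNAs lower the TPM of all other genes in their library. Columns were matched to samples by their titles and grouped by stage.

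Genes that reached 1 TPM in 2 or more libraries were tested with limma 3.58.1 (R 4.3.3, moderated variances with a mean-variance trend, 2 residual degrees of freedom, two-sided) on log2(TPM + 1), a scale that understates changes of low genes. A gene is called where its adjusted p (Benjamini-Hochberg, over the table) is below 0.05. Gene types came from GENCODE release 29, in which 58039 of 58302 IDs were found. Promoter windows came from RefSeq, matched by symbol.

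The genes, lists and tests were chosen with earlier results of these data known. All members are named, and from each list up to 3 called genes per direction with the largest difference and the tested gene not called with the highest mean TPM over the 4 libraries. The 3 nearest genes are given for the most abundant member of each stage. CASP1, GSDMD, IFNG, NUMA1 and AP002884.3, and the chromosome neighbours and markers given as values, were named outside that rule. Alternatives covered pseudocount, filter, scaling, variance model, replicate number and each library left out.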

Additional observations from a re-analysis of the deposited data

How the results depend on the processing

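IL1RN and IL1R2 kept their call in every alternative run, and none of IL1RN, IL1R2, IL1B and IL1RAP changed direction. IL1RN and IL1R2 were below 1 TPM in both undifferentiated libraries, and 91.2% of such tested genes were called higher as reported. Their kept calls are therefore not stronger evidence than the IL1B call. For the 5 members below the limit for testing no library was left out. IL1B had the same log2 difference of 1.81 without a filter on low values, where it was not called, and 1.46 to 2.16 with a library left out, where it was not called without either differentiated library. IL1RAP, not called as reported, was called at 0.62 after median-of-ratios scaling and at 1.29 over protein-coding genes, ranged from 0.15 to 0.79 with a library left out, and could not be tested at a limit of 5 TPM. Rescaling without genes above 10000 TPM and over protein-coding genes moved IL1A to 0.83 and 1.25 from 0.28, and IL18BP to 0.80 and 1.21 from 0.31. IL1B stood at 2.32 and 2.77 in these settings, against 1.81 as reported. Rescaling raised the values while the pseudocount stayed at 1. A change of scale and a smaller weight of the pseudocount therefore cannot be told apart in these shifts. CAPN1 changed sign, to 0.16 over protein-coding genes from -0.37, and was called on neither scale. The stage difference of the log2 ratio of IL1RN to IL1B was 5.02 as reported, and 3.73 to 6.30 with a library left out. It was 1.77 with quantile normalization, where, unlike in the reported value, a pseudocount of 1 was also included. Over the table, the number of genes called higher was 687 without a filter, 1016 at 5 TPM, 2915 after median-of-ratios scaling, 3089 without the most abundant RNAs and 4102 over protein-coding genes, against 1890 as reported. The number called lower was 573 without a filter and 1420 at 5 TPM, against 2326. With a library left out these counts ranged from 934 to 2714 (higher) and from 337 to 3818 (lower), and the lowest came without differentiated replicate 2. Of the calls, 44.8% were higher as reported and 65.6% over protein-coding genes, with 32.4% without undifferentiated replicate 2, 73.4% without differentiated replicate 1 and 73.5% without differentiated replicate 2. Replicate numbers are not said to pair libraries, and the deviations of same-numbered libraries correlated at -0.0237 across genes. With a replicate block, 1730 genes were called higher and 2036 lower, and IL1B (adjusted p = 0.002), IL1RN, IL1R2 and IL1RAP stayed on the same side of the threshold. The cause of the changes between settings was not tested. TPM gives no depth, so no limit of detection stands behind values below 1 TPM.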
